A study of Mus musculus with 5 samples.

Results

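The genes described here are the membrane-anchored proteases that cut proteins off the cell surface and the proteins that carry or restrain them. They are 10 named genes of the 17058 in the expression tables, taken by their symbols: the sheddases *Adam17*, *Adam10*, *Adam8*, *Adam9*, *Adam15*, and *Adam19*, the iRhoms *Rhbdf1* and *Rhbdf2*, the iRhom partner *Frmd8*, and the inhibitor *Timp3*. All 10 had counts in every library and passed the filter on low counts. RNA-Seq was carried out on bone marrow–derived macrophages (BMDMs) grown for 48 hours opposite 4T1 cells, a mouse mammary carcinoma line, with a porous membrane between the cell types. The cancer cells were unedited (WT) in 2 libraries and *Adam17*-/- in 3. Editing was confined to the 4T1 cells, which were not sequenced. The macrophages came from Balb/c mice that were 6 to 12 weeks old and were grown with M-CSF, per the labels and the study's methods. The labels give the designation 2.8 to the edited 4T1 cells of all 3 libraries, so that loss of *Adam17* and other features of that line cannot be told apart. Nothing in the labels says that libraries of a group came from separate mice or cultures, so the p-values measure only the spread between these libraries, which may be technical.

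ADAM proteases are made as inactive precursors and, once at the cell surface, release the outer part of other membrane proteins. Furin-type convertases activate many of them, including ADAM17 and ADAM10, while ADAM8 removes its own prodomain. ADAM17, also called TACE, releases TNF-α, its receptors, and EGFR ligands. It leaves the endoplasmic reticulum only with an iRhom, a rhomboid relative that has lost its protease activity, and in myeloid cells that role falls mainly to iRhom2, the product of *Rhbdf2*. FRMD8 binds iRhoms and keeps them from being degraded, TIMP3 blocks ADAM17 from outside the cell, and ADAM10 depends on tetraspanins of the TspanC8 group in place of iRhoms. ADAM8 was first known from myeloid cells, and the shedding activities of ADAM9, ADAM15, and ADAM19 are less well mapped.

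The libraries held 14658694 to 20788373 expected counts, and a gene at 3 counts stood at 0.157 to 0.197 CPM (counts scaled to the TMM-normalized library total). Macrophage markers were high in all 5 libraries, with summed levels of 27659 to 28416 CPM over 8 genes in the WT coculture and 17945 to 19906 CPM in the *Adam17*-/- coculture, and 6 of the 8 were lower in the latter. The 10 epithelial genes that would mark 4T1 RNA summed to 11.5 to 14.3 CPM, nearly all of it *Cdh1*, and the other 9 summed to 0.658 to 1.47 CPM, with none at 0 in all libraries. Of the 10 neutrophil genes, 9 were higher in the *Adam17*-/- coculture, where they summed to 1259 to 1443 CPM, against 369 to 463 CPM in the WT coculture. Dendritic cell genes summed to 16.8 to 29.3 CPM against 43.6 to 57.5 CPM with 3 of 6 tested genes higher, fibroblast genes ranged from 35.0 to 41.2 CPM against 40.7 to 121 CPM with 2 of 5 higher and replicate 3 on top, and T and B cell genes summed to 2.81 to 5.39 CPM. Since these are bulk libraries, fewer cells of a type and less RNA per cell cannot be told apart.

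Of the 10 genes, 7 differed between the cocultures, with 5 lower and 2 higher opposite *Adam17*-/- cells. *Adam8*, *Adam15*, *Adam9*, *Rhbdf2*, and *Adam17* decreased, the first of them the most and the last the least, and *Adam19* and *Timp3* increased. *Adam10*, *Rhbdf1*, and *Frmd8* did not pass the test. Genes were called at a p of 0.05 or less after Benjamini-Hochberg adjustment over the 12576 genes tested with edgeR's quasi-likelihood method, without a limit on fold change. By that rule 31.7% of all genes were called, 16.8% lower and 14.9% higher. *Adam8* and *Adam19* also differed by a log2 fold change of 1 or more, as did 4.22% of all genes. The groups did not overlap for 8 of the 10 genes, and this was so for 58.1% of all genes. The median log2 fold change was -0.25 over the 10 genes and 0.01 over all genes.

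**Figure D1:**
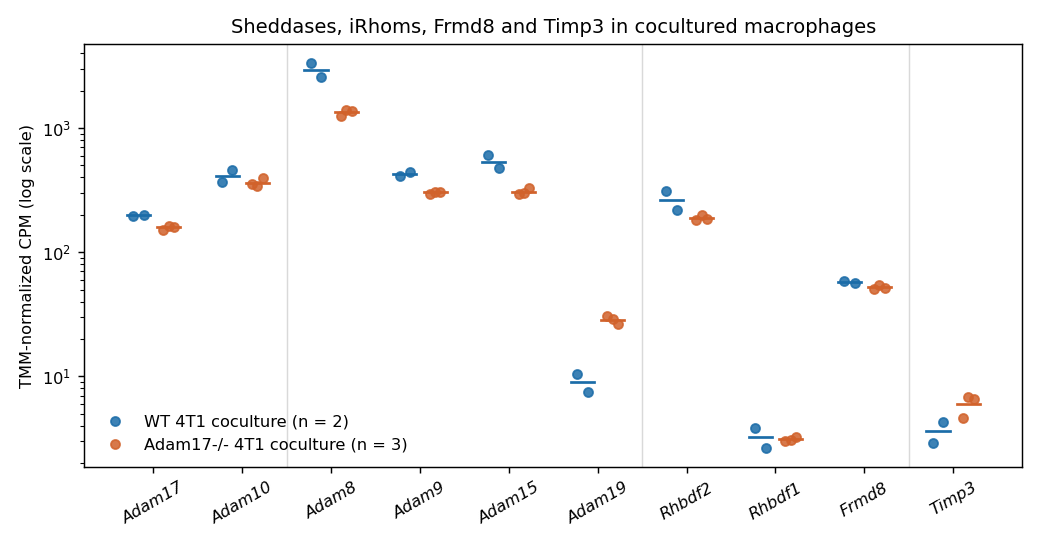
TMM-normalized CPM on a log axis for each of the 10 genes, with a point for each library (2 WT and 3 Adam17-/- cocultures) and a bar at each group's mean. The Adam8 points lie at 2583 and 3323 CPM in the WT coculture and at 1244 to 1402 CPM in the Adam17-/- coculture, while the Adam19 points lie higher in the Adam17-/- coculture, at 26.3 to 30.5 CPM.

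Levels of different genes were compared per length, as FPKM (fragments scaled to transcript length and library size) summed over the transcripts of a gene. *Adam8* was by far the most abundant of the 10, with a mean of 637 FPKM and a range of 428 to 1001 FPKM over the 5 libraries, and it ranked 62 among all 17058 genes. *Adam15* followed at 134 FPKM (105 to 188), *Adam9* at 88.9 FPKM (79.0 to 109), and *Adam10* at 83.8 FPKM (74.2 to 95.9). *Rhbdf2* stood at 59.6 FPKM (52.2 to 78.2), above *Adam17* itself at 39.6 FPKM (36.2 to 43.8). So the iRhom that serves ADAM17 in myeloid cells had more transcript per length than its client in every library. *Frmd8* stood at 17.5 FPKM (17.2 to 18.4). *Adam19* at 3.44 FPKM (1.14 to 5.14), *Rhbdf1* at 1.10 FPKM (0.88 to 1.21), and *Timp3* at 1.10 FPKM (0.58 to 1.52) were the low genes of the group. Neighbours in this order whose ranges overlapped were *Adam15* and *Adam9*, *Adam9* and *Adam10*, *Adam10* and *Rhbdf2*, *Adam19* and *Rhbdf1*, and *Rhbdf1* and *Timp3*. Within the groups the order was the same except that *Adam9* with *Adam10*, and *Rhbdf1* with *Timp3*, changed places.

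*Adam17* (Entrez Gene 11491, chr12:21323509-21373632 of GRCm38, minus strand, 19 exons) was transcribed by the macrophages of each library. It stood at 198 and 200 CPM opposite WT cells and at 152, 164, and 161 CPM in the *Adam17*-/- coculture. All 3 libraries opposite edited cells lay below both others, by more than the spread within either group. Means with SDs were 199 ± 1.51 CPM (n = 2) and 159 ± 6.32 CPM (n = 3), a difference of -0.32 on the log2 scale (SE 0.0779, edgeR's adjusted p = 0.0129). Leaving out *Adam17*-/- replicate 1, 2, or 3 raised the adjusted p to 0.0987, 0.0514, and 0.0607, scaling by library size only to 0.104, and fits to FPKM to 0.101 and 0.103. The median of all genes moved from 0.01 with TMM factors to 0.16 with library size only, and relative to that median *Adam17* was at -0.33 on the log2 scale with both. Scaling moves all genes by nearly the same amount, so this equality was fixed beforehand and adds nothing to the call. Most of the counts, 94.0% to 97.5% per library, were assigned to the transcript NM_009615.

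*Adam10* (11487, chr9:70678944-70780229, plus strand, 16 exons), the closest relative of *Adam17* among the sheddases and the protease of Notch receptors, did not pass the test. It was at 368 and 455 CPM in the WT coculture and at 353, 343, and 394 CPM in the *Adam17*-/- coculture, so that *Adam17*-/- replicate 3 lay between the WT values. The difference was -0.18 on the log2 scale (SE 0.107, edgeR's adjusted p = 0.227). The value depended on which WT library was kept: the log2 fold change was -0.33 (adjusted p = 0.0129) without WT replicate 1 and -0.02 (adjusted p = 0.871) without WT replicate 2. Of the 13 alternative fits, 1 called the gene. All of its counts were assigned to NM_007399.

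*Adam8* (11501, chr7:139978932-139995207, minus strand, 24 exons) showed the largest decrease of the 10 genes. It stood at 3323 and 2583 CPM in the WT coculture and 1244, 1402, and 1373 CPM in the *Adam17*-/- coculture. The lowest WT value was thus well above the highest value opposite *Adam17*-/- cells. The means and SDs of *Adam8* were 2953 ± 523 CPM (n = 2) and 1340 ± 83.7 CPM (n = 3), 2.20-fold lower, a difference of -1.14 on the log2 scale (SE 0.116, edgeR's adjusted p = 0.000396). The call held in all 13 alternative fits, with log2 fold changes of -1.31 to -0.95. The macrophage markers fell as well, to 0.67 of their WT sum, while the neutrophil markers rose, and the part of either in this result was not tested.

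Reads of *Adam8* were divided between a pair of transcripts whose coding sequences differ by 3 bases, here placed in exon 1 (chr7:139992432-139992434, minus strand). The stretch around it is shown because both transcripts held a large share of the reads and these bases are where their coding sequences differ. Capitals mark the 3 bases, which are present in NM_007403 and missing from NM_001291066. The same 3 bases follow them, so the sequence does not tell which copy is missing. The 30 bases on either side are those of the spliced transcript and may reach beyond exon 1.

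Adam8 exon 1 coding stretch: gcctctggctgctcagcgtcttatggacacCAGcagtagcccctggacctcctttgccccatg

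The shorter transcript took 67.6% and 68.4% of the *Adam8* counts in the WT coculture and 68.9%, 68.8%, and 64.6% in the *Adam17*-/- coculture. The FPKM of both transcripts was lower in each *Adam17*-/- library than in either WT library. In edgeR's test of transcript usage, the adjusted p for *Adam8* was 1.00.

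*Adam15* (11490, chr3:89339640-89350028, minus strand, 23 exons), a sheddase whose cytoplasmic tail differs between splice forms, decreased as well. It was at 602 and 472 CPM in the WT coculture and at 296, 298, and 327 CPM in the *Adam17*-/- coculture, with no overlap. Means with SDs were 537 ± 91.9 CPM (n = 2) and 307 ± 17.2 CPM (n = 3), a difference of -0.81 on the log2 scale (SE 0.109, edgeR's adjusted p = 0.00105). This call held in all 13 alternative fits, from -0.97 to -0.63. The listed transcripts differ by 147 bases of the tail, which are exon 20 (75 bases, chr3:89340863-89340937) and exon 21 (72 bases, chr3:89340401-89340472) of the 23 exons of NM_001037722. They are missing from NM_009614 and are printed joined, 5′ to 3′, as the coding sequence that sets the splice forms apart.

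Adam15 exons 20 and 21: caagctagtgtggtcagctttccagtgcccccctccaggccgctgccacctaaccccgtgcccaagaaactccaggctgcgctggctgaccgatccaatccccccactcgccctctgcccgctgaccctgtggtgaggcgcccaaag

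The form with these exons took 87.5% and 87.0% of the *Adam15* counts in the WT coculture and 87.1%, 86.2%, and 83.0% in the *Adam17*-/- coculture. *Adam17*-/- replicate 3 was the lowest, and it was also the lowest for the shorter transcript of *Adam8*. The adjusted p of the usage test was 1.00 for *Adam15*.

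*Adam9* (11502, chr8:24949611-25017040, minus strand, 22 exons), a widely expressed sheddase, showed a smaller decrease with little spread. It was at 409 and 445 CPM in the WT coculture and at 297, 306, and 306 CPM in the *Adam17*-/- coculture. The means and SDs of *Adam9* were 427 ± 25.1 CPM (n = 2) and 303 ± 5.57 CPM (n = 3), a difference of -0.49 on the log2 scale (SE 0.0789, edgeR's adjusted p = 0.00214), and it stayed called in all 13 alternative fits. Nearly all of its counts, 99.7% or more per library, were assigned to NM_007404.

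*Adam19* (11492, chr11:46054502-46147347, plus strand, 23 exons), a sheddase of neuregulins, went the other way and showed the largest change of the 10 genes. It had 201 and 138 counts in the WT coculture and 557, 442, and 496 counts in the *Adam17*-/- coculture, or 10.5 and 7.47 CPM against 30.5, 29.1, and 26.3 CPM. Even the lowest library opposite *Adam17*-/- cells was above both WT libraries. Means with SDs were 8.99 ± 2.16 CPM (n = 2) and 28.6 ± 2.15 CPM (n = 3), 3.17-fold higher, a difference of 1.67 on the log2 scale (SE 0.152, edgeR's adjusted p = 0.000299), and it stayed called in all 13 alternative fits, at 1.31 to 1.93. The share of its transcripts could not be ordered by group. NM_001291890 took 83.0% and 25.5% of the *Adam19* counts opposite WT cells and 69.2%, 6.78%, and 51.6% opposite *Adam17*-/- cells. Most of the rest went to NM_009616, and NM_001311209 took 23.5% in *Adam17*-/- replicate 2 and no counts elsewhere. The usage test gave an adjusted p of 1.00 for *Adam19*.

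**Figure D2:**
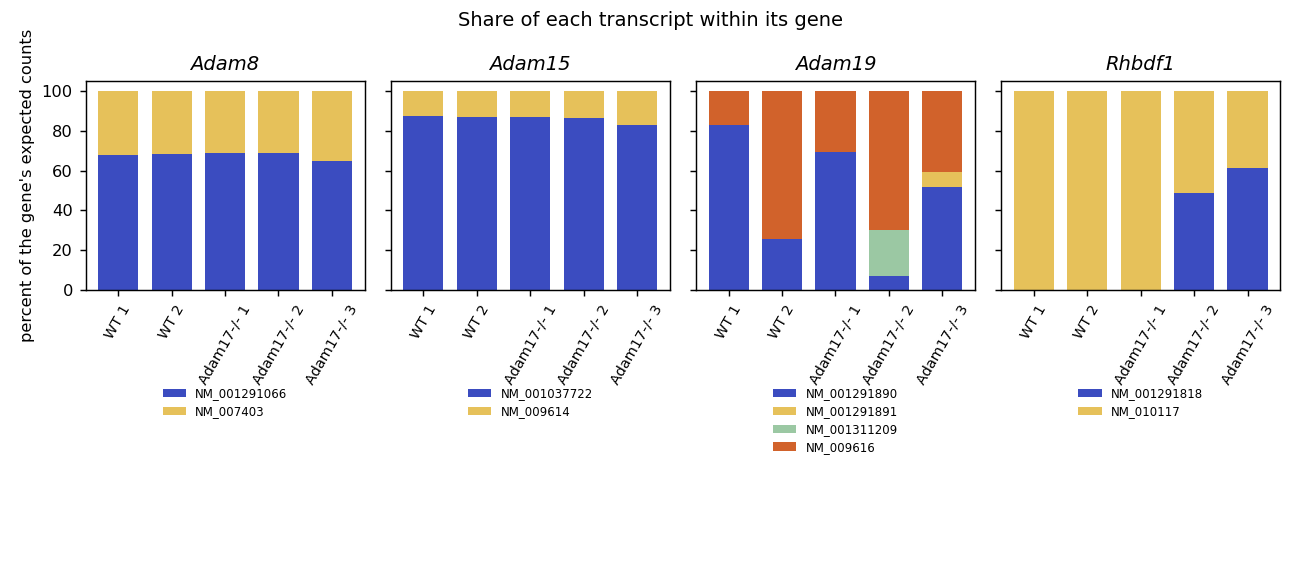
Percent of the expected counts of Adam8, Adam15, Adam19, and Rhbdf1 that was assigned to each listed transcript, stacked to 100 for each of the 5 libraries. The Adam8 and Adam15 bars are alike in all libraries, while the Adam19 and Rhbdf1 bars differ as much within a group as between groups.

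The summed level of the 6 sheddases was lower opposite *Adam17*-/- cells, and the most abundant of them made up less of it. It was 1402 and 1218 FPKM in the WT coculture and 735, 784, and 794 FPKM in the *Adam17*-/- coculture, a ratio of the means of 1.70. *Adam8* made up 71.4% and 66.8% of this sum opposite WT cells and 58.2%, 60.8%, and 58.7% opposite *Adam17*-/- cells. *Adam19*, which rose, was at most at 5.14 FPKM.

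**Figure D3:**
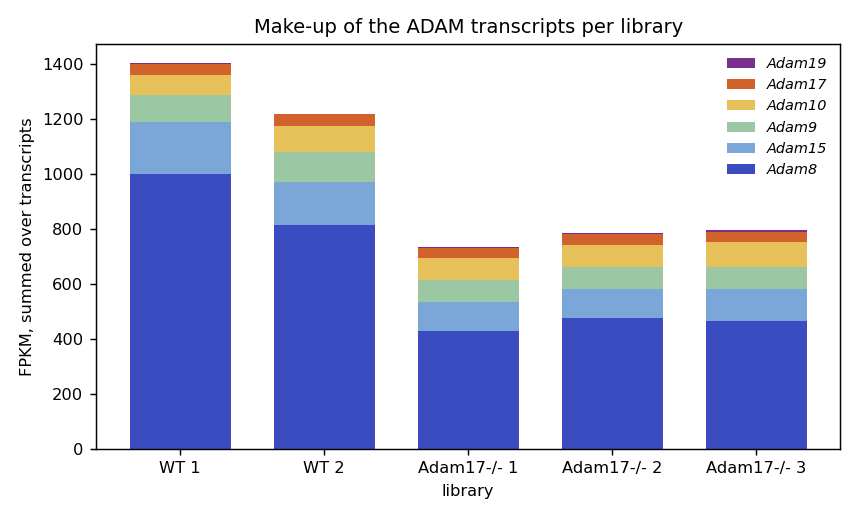
Summed FPKM of the 6 ADAM genes in each of the 5 libraries, with a stacked part for each gene. The Adam8 part spans 814 and 1001 FPKM in the WT libraries and 428 to 477 FPKM in the Adam17-/- libraries, and the Adam19 part is barely visible.

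The windows before the annotated starts of *Adam8*, *Adam15*, and *Adam19* are shown because these genes had the largest changes among the sheddases, a pair of them down and the last up. The sequences are RefSeq's for GRCm38.p6, which held windows for 7 of the 10 genes and none for *Adam9*, *Rhbdf1*, and *Rhbdf2*. Each ends at the base before the start and is printed as far as no annotated exon of any gene lies in it. The coordinates are chr7:139992563-139992812, minus strand, for *Adam8*, chr3:89350029-89350218, minus strand, for *Adam15*, and chr11:46055734-46055983, plus strand, for *Adam19*, whose start is one of 3 annotated. The span given above for *Adam8* reaches farther upstream than the start used here. Capitals mark matches, on either strand, to an AP-1 site (TGANTCA), an ETS site (CCGGAA), a GC box (GGGCGG), or a CCAAT box (CCAAT), and no match overlapped that of another motif.

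Adam8 upstream window: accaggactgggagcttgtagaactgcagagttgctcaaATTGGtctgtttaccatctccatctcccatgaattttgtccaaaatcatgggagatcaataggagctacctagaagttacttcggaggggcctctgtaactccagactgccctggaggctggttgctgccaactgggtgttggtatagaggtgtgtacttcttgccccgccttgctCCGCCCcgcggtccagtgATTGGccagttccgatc

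Adam15 upstream window: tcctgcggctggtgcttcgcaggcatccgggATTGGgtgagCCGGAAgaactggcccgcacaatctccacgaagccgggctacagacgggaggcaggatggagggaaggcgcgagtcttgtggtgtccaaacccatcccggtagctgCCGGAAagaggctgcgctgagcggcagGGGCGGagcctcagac

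Adam19 upstream window: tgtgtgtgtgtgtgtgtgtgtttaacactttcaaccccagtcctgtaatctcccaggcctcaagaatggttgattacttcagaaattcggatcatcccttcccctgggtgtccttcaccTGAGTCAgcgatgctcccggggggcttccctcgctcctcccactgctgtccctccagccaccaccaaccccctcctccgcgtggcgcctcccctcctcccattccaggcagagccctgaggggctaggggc

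The *Adam8* window held a GC box 35 bases before the start and CCAAT boxes 211 and 17 bases before it. The *Adam15* window held ETS sites 149 and 43 bases before the start, a GC box at 16, and a CCAAT box at 159. The *Adam19* window held an AP-1 site 131 bases before the start and none of the other 3 motifs. The windows before the other 2 annotated *Adam19* starts, one of them the outermost, held no match to any of the 4 motifs. Among 32851 RefSeq windows of 250 bases, 6.75% held an AP-1 site, 12% an ETS site, 32.7% a GC box, and 33.8% a CCAAT box. A match describes letters in the window and says nothing of binding.

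*Rhbdf2* (217344, chr11:116598148-116626960, minus strand, 19 exons), which encodes the iRhom of myeloid cells, was lower in the *Adam17*-/- coculture. It was at 311 and 220 CPM in the WT coculture and at 182, 199, and 187 CPM in the *Adam17*-/- coculture. The groups did not overlap, but the WT replicates differed from each other by more than WT replicate 2 differed from the *Adam17*-/- libraries. The means and SDs of *Rhbdf2* were 265 ± 63.8 CPM (n = 2) and 189 ± 8.79 CPM (n = 3), a difference of -0.49 on the log2 scale (SE 0.129, edgeR's adjusted p = 0.0188). Without WT replicate 1 the log2 fold change was -0.22 and without WT replicate 2 it was -0.72. The adjusted p rose to 0.0801 without *Adam17*-/- replicate 1, to 0.0653 without *Adam17*-/- replicate 3, to 0.0567 with library size only, and to 0.0782 and 0.0805 in the FPKM fits. All *Rhbdf2* counts were assigned to NM_001167680.

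*Rhbdf1* (13650, chr11:32209585-32222331, minus strand, 18 exons), which encodes iRhom1, was near the lower end of what the depth can compare, with 73 and 49 counts in the WT coculture and 55, 47, and 62 counts in the *Adam17*-/- coculture. The groups overlapped, a difference of -0.05 on the log2 scale (SE 0.216, edgeR's adjusted p = 0.879), with a positive sign in 6 of the 13 alternative fits. Its 73, 49, and 55 counts in the WT replicates and *Adam17*-/- replicate 1 were assigned to NM_010117 alone. In *Adam17*-/- replicates 2 and 3, NM_001291818 took 48.7% and 61.0%. The usage test gave an unadjusted p of 0.0494 and an adjusted p of 0.609 (edgeR, Simes), on at most 73 counts per library.

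*Frmd8* (67457, chr19:5850974-5875269, minus strand, 11 exons), listed with the transcript NM_026169 alone, was at 58.6 and 56.5 CPM in the WT coculture and at 50.8, 54.9, and 51.7 CPM in the *Adam17*-/- coculture. Its values did not overlap between groups and yet lay close together, a difference of -0.13 on the log2 scale (SE 0.0840, edgeR's adjusted p = 0.252), with the sign turned to 0.01 when libraries were scaled by size only and in both FPKM fits.

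*Timp3* (21859, chr10:86300412-86349505, plus strand, 5 exons), the inhibitor, listed with the transcript NM_011595 alone, had 56 and 80 counts in the WT coculture and 84, 103, and 125 counts in the *Adam17*-/- coculture, or 2.93 and 4.33 CPM against 4.60, 6.78, and 6.62 CPM. Its highest WT value was just below its lowest value opposite *Adam17*-/- cells. The means and SDs of *Timp3* were 3.6 ± 0.99 CPM (n = 2) and 6.0 ± 1.2 CPM (n = 3), 1.65-fold higher, a difference of 0.72 on the log2 scale (SE 0.235, edgeR's adjusted p = 0.0423). The call was lost without WT replicate 1 (log2 fold change 0.46, adjusted p = 0.182), without *Adam17*-/- replicate 2 (adjusted p = 0.122), and without *Adam17*-/- replicate 3 (adjusted p = 0.127). The fibroblast genes summed to 41.2 and 35.0 CPM in WT replicates 1 and 2, and to 40.7, 62.5, and 121 CPM in *Adam17*-/- replicates 1, 2, and 3. Among the *Adam17*-/- libraries, *Timp3* and this sum were both lowest in replicate 1. Between *Adam17*-/- replicates 2 and 3, and between the WT replicates, *Timp3* and this sum were ordered oppositely. The part of the fibroblast genes in this result was not tested.

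**Figure D4:**
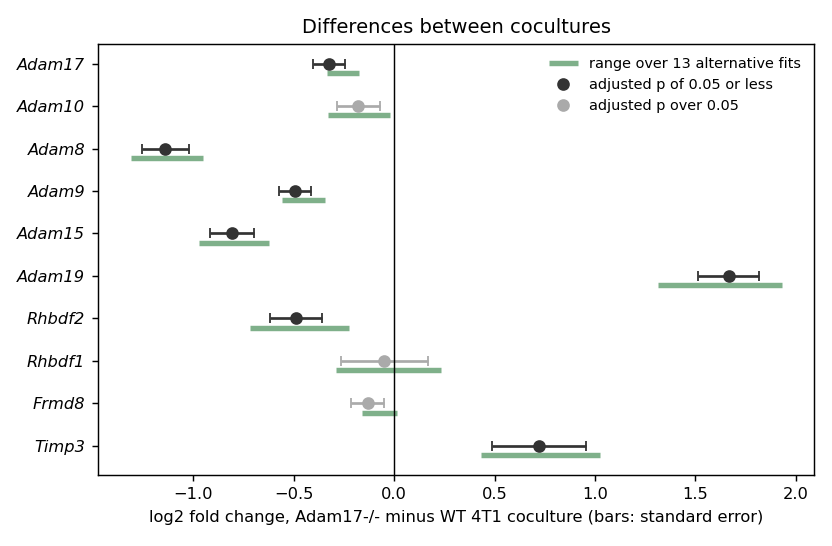
Log2 fold change, Adam17-/- minus WT coculture, of each of the 10 genes as a point with a standard error bar (dark where the adjusted p was 0.05 or less), and below it a green bar for the range over 13 alternative fits. Adam19 at 1.67 and Adam8 at -1.14 stand farthest from 0, and the green bars of Rhbdf1 and Frmd8 cross it.

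Reads were divided among transcripts by estimate, and the transcript usage of 6 of the 10 genes could be tested. None of the 6 was called by edgeR (Simes method), where 2.41% of 3196 genes were, and 2 had an unadjusted p under 0.05, *Adam17* (0.0181, adjusted p = 0.317) and *Rhbdf1*. The gene F test also called 0, with 1, *Rhbdf1*, at an unadjusted p under 0.05 (0.0229). In the Simes test, the lowest p among *Adam17* transcripts was that of the noncoding NR_120376, which took no counts opposite WT cells and 25.4, 20.9, and 23.9 counts opposite *Adam17*-/- cells, 0.788% to 0.918% of the gene. In the annotation, 6 of the 10 genes share exon sequence with another gene, and whether strand was used in counting is not given in the sources used here. Of these partners, *Iah1*, which overlaps *Adam17*, was at 9.05 and 9.15 CPM against 8.26, 7.04, and 8.95 CPM (adjusted p = 0.404, edgeR), and *Syn3*, which overlaps *Timp3*, was at 4.03 and 3.68 CPM against 4.93, 4.01, and 5.03 CPM (adjusted p = 0.264).

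The library profiles most like that of *Adam17*, among 8479 other genes with a mean of at least 10 CPM, were those of *Calu*, *Stt3a*, and *Garre1*. Their log2 levels, each centred on its mean, differed from those of *Adam17* over the 5 libraries by a root mean square of 0.00924, 0.0107, and 0.0169. For *Adam19* they were *S100a9*, *Mgam*, and *Padi4*, at 0.0748, 0.122, and 0.135. With only 5 libraries, genes of similar fold change have similar profiles, so these matches need not show more than that. *S100a9* is the most abundant of the neutrophil markers that rose in the *Adam17*-/- coculture, and the part of such cells in the *Adam19* result was not tested.

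Around these 10 genes, 7 lists of the shedding machinery and its substrates held 49 genes that could be tested, and 5 were higher and 10 lower in the *Adam17*-/- coculture. These 15 called genes are 30.6% of the 49, a share near the 31.7% over all genes. The balance turned with the scaling, to 8 higher and 8 lower with upper quartile factors, 13 and 7 with library size only, and 11 and 6 or 9 and 6 in the FPKM fits. *Csf1r*, *Mertk*, and *Cdh1* are on these lists and also among the cell type markers above. Other ADAM genes were scarce. Of 28 listed, 14 appeared in the tables and 7 passed the filter, and none of the 7 was called, with a median log2 fold change of 0.71. *Adam11* (log2 fold change 1.81, adjusted p = 0.0546), *Adam28* (0.80, adjusted p = 0.0522), and *Adam22* (0.71, adjusted p = 0.0798) came nearest by edgeR, on at most 54 counts per library. *Adam28* passed in 7 of 13 alternative fits, *Adam11* in 5 of 10, and *Adam22* in 2 of 13. The log2 fold change of *Adam11* was 2.74 without WT replicate 1 and 1.26 without WT replicate 2. The 5 tested genes of other rhomboids, which include active intramembrane proteases, were not called either, with a median of 0.06.

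Of 5 tested TspanC8 tetraspanins, 2 were higher and 1 lower, and of 4 tested genes of precursor cutting and transport, 1 was lower and none higher, where 14.9% of all genes were higher and 16.8% lower. *Tspan5* (log2 fold change -0.01, adjusted p = 0.963, edgeR) and *Tspan17* (0.03, adjusted p = 0.831) did not pass the test. *Tspan14*, which carries ADAM10 to the surface, was at 152 and 127 CPM in the WT coculture and at 100, 106, and 113 CPM in the *Adam17*-/- coculture (log2 fold change -0.39, adjusted p = 0.0172, edgeR). *Tspan33* rose from 14 and 8 counts to 38, 21, and 26 counts (1.46, adjusted p = 0.0180) and *Tspan10* from 3 and 4 counts to 11, 9, and 9 counts (1.54, adjusted p = 0.0488), so both rest on few reads. *Furin*, a convertase of ADAM precursors, was at 573 and 445 CPM against 363, 376, and 377 CPM (-0.45, adjusted p = 0.0116). Without *Adam17*-/- replicate 1 the adjusted p was 0.0594 for *Furin*, 0.0569 for *Tspan33*, and 0.0941 for *Tspan14*, which was also at 0.0695 without *Adam17*-/- replicate 2. *Tspan14* stayed called in 7 of 13 alternative fits, with an adjusted p of 0.0754 under scaling by library size only and of 0.0892 and 0.0893 in the FPKM fits. Without WT replicate 2 it was 0.0745 for *Tspan33*. *Tspan10* passed in 4 of 10 alternative fits, and its adjusted p was 0.225 and 0.113 without WT replicate 1 or 2 and 0.0722 without *Adam17*-/- replicate 3.

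Among the inhibitors, *Timp2* fell from 157 and 132 CPM to 102, 117, and 94.6 CPM (log2 fold change -0.47, adjusted p = 0.0113, edgeR), and its call was lost without *Adam17*-/- replicate 1 or 3 (adjusted p = 0.0609 and 0.0572) and in both FPKM fits (0.0517 and 0.0532), so that it held in 8 of 13 alternative fits. *Reck*, a membrane-anchored inhibitor of metalloproteinases, rose from 13 and 11 counts to 42, 41, and 43 counts (1.91, adjusted p = 0.00176). *Reck* stayed called in all 13 alternative fits. *Timp1*, the last of the 3 tested, was at 4.81 and 2.92 CPM against 4.10, 2.76, and 6.46 CPM (0.21, adjusted p = 0.651), so the groups overlapped.

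Of 17 tested genes whose proteins ADAM17 is known to cut, 2 were higher and 3 lower, where 14.9% of all genes were higher and 16.8% lower, and the median log2 fold change was -0.08. *Tnf* was at 30.8 and 21.2 CPM in the WT coculture and at 9.69, 10.3, and 10.2 CPM in the *Adam17*-/- coculture (log2 fold change -1.37, adjusted p = 0.000559, edgeR), and its receptor *Tnfrsf1a* was at 229 and 194 CPM against 147, 142, and 146 CPM (-0.55, adjusted p = 0.00234). *Cd163*, the hemoglobin scavenger receptor of macrophages, was the third to fall (-1.52, adjusted p = 0.000372). *Il1r2*, the decoy receptor of IL-1, rose from 38.0 and 27.0 CPM to 61.4, 54.4, and 55.5 CPM (0.81, adjusted p = 0.00295). Neutrophils also express *Il1r2*, and the neutrophil markers rose 3.27-fold in sum, and their part was not tested. The calls of these 4 genes held in all 13 alternative fits.

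The EGFR ligands that ADAM17 releases were hardly transcribed by the macrophages. *Hbegf* had 19 and 26 counts in the WT coculture and 19, 27, and 30 counts in the *Adam17*-/- coculture (log2 fold change 0.28, adjusted p = 0.548, edgeR). *Areg* had 2 and 0 counts against 0 in each *Adam17*-/- library, and *Tgfa* had at most 1 count in any library, so that neither was tested and both were under the floor of 3 counts. *Csf1*, whose product M-CSF was also added to the macrophages, was at 29.1 and 15.8 CPM against 35.4, 29.8, and 32.2 CPM (0.53, adjusted p = 0.0795). *Csf1* passed in 7 of 13 alternative fits, among them DESeq2 (adjusted p = 0.0278), both FPKM fits (0.0328 and 0.0341), and the fit without WT replicate 1 (log2 fold change 1.04, adjusted p = 0.000116), whereas without WT replicate 2 the log2 fold change was 0.15 (adjusted p = 0.284). Its receptor *Csf1r* was at 5615 and 5097 CPM against 4047, 4389, and 4687 CPM (-0.29, adjusted p = 0.0520), and it passed in 3 of 13 alternative fits, with an adjusted p of 0.0161 without WT replicate 2.

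Of 8 tested genes for ADAM10 substrates, 4 were lower and none higher in the *Adam17*-/- coculture, where 16.8% of all genes were lower and 14.9% higher, and the median was -0.21. *App*, the amyloid precursor, was at 1500 and 1569 CPM in the WT coculture and at 911, 1000, and 1066 CPM in the *Adam17*-/- coculture (log2 fold change -0.63, adjusted p = 0.00148, edgeR), and *Notch1* was at 1684 and 1384 CPM against 1003, 1048, and 999 CPM (-0.59, adjusted p = 0.00265). Both stayed called in all 13 alternative fits. *Notch2* (-0.24, adjusted p = 0.0425) and *Cd44*, the hyaluronan receptor (-0.28, adjusted p = 0.0232), changed less. *Notch2* stayed called in 3 of the 13 fits and *Cd44* in 5, and leaving out *Adam17*-/- replicate 1, 2, or 3 gave adjusted p-values of 0.187, 0.101, and 0.177 for *Notch2* and 0.140, 0.0833, and 0.0998 for *Cd44*.

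**Figure D5:**
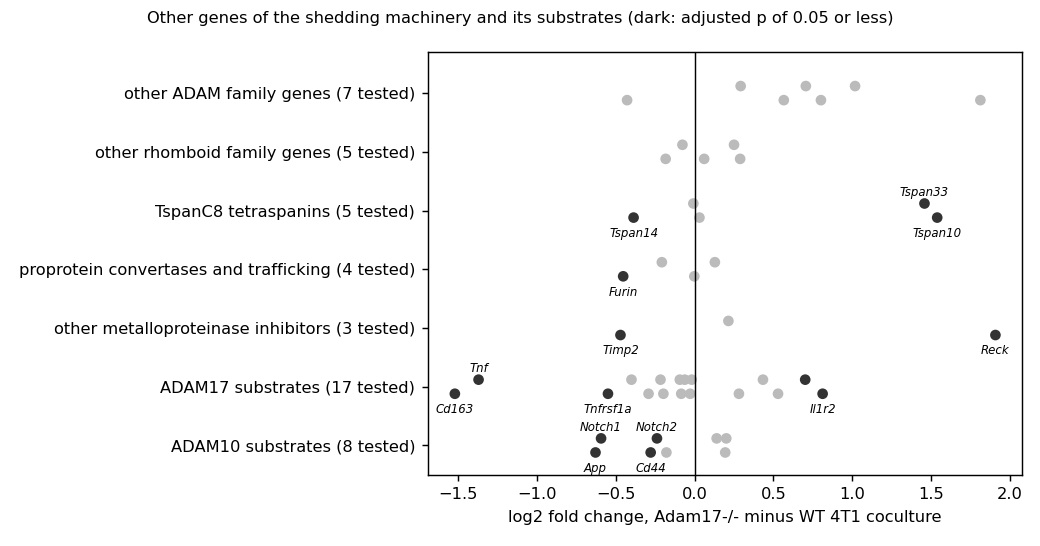
Log2 fold change, Adam17-/- minus WT coculture, of each tested gene in the 7 lists of the shedding machinery and its substrates, with dark points for genes at an adjusted p of 0.05 or less, named where the text gives their values. The dark points number 10 to the left of 0 and 5 to the right, and Reck at 1.91 and Cd163 at -1.52 lie farthest out.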

How the data were processed

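RNA-Seq of 5 BMDM samples was analyzed (2 WT and 3 *Adam17*-/- 4T1 cocultures, grouped by the labels). The authors sequenced on a BGISEQ-500, aligned to GRCm38 with HISAT, and quantified with Bowtie2; the submitters' processing notes also name RSEM and Bowtie, all without versions. Per transcript, the authors deposited an expected count without normalization. The deposited FPKM of each transcript is scaled to its length and to the library. The lowest FPKM listed is 0.01, and a transcript that was not listed was taken as 0. The total per library limits the precision for low genes such as *Rhbdf1*.

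Sums per gene of the expected counts (16.0% to 16.8% of them per library not whole) were rounded. They were filtered by filterByExpr, scaled by TMM, and fitted with glmQLFit and glmQLFTest of edgeR 4.0.16 (R 4.3.3), with no covariate. For 2 samples against 3, the smallest p of an exact permutation test is 0.1. Transcript usage was tested with diffSpliceDGE. Alternatives were upper quartile factors, scaling by library size only, DESeq2 1.42.0, limma 3.58.1 on log2(FPKM + 0.1) and log2(FPKM + 1), other filters and thresholds, the replicate number as a block, and each replicate left out. The tests were checked on simulated data. Python 3.11.15, pandas 2.3.3, and matplotlib 3.10.9 were also used. Counts of every pair of replicates differed by more than sampling noise, with a chi-square of 5.22 to 25.7 per degree of freedom.

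The 10 genes and all lists were chosen with earlier results of these data known. Named were all 10 genes, their transcripts with at least 10% of a gene's counts in any library, some tested genes of lists with 8 or fewer tested (any could be named), up to 4 called genes per direction of longer lists, *Tnf*, *Hbegf*, *Areg*, *Tgfa*, *Csf1*, and *Csf1r*, and the 3 profiles most like *Adam17* and *Adam19*. For 1 gene of the ADAM17 substrate list, which the counts include, the values are not reported here. NR_120376, *Iah1*, and *Syn3* lie outside this rule and were named after their values were seen. Of 17058 gene IDs, 17015 were matched to a symbol; positions are those of the RefSeq and GENCODE annotations for GRCm38.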

Additional observations from a re-analysis of the deposited data

How the results depend on the processing

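Over 13 alternative fits, *Adam8*, *Adam9*, *Adam15*, and *Adam19* stayed called with the same sign in every one, *Rhbdf2* in 8, *Timp3* in 9, and *Adam17* in 6, and *Adam10* was called in 1. Signs turned only for *Rhbdf1* and *Frmd8*, which were never called. *Rhbdf1* was at 0.0074 with upper quartile factors, 0.10 with library size only, 0.133 and 0.0721 with log2(FPKM + 0.1) and log2(FPKM + 1), 0.23 without WT replicate 1, and 0.0007 without *Adam17*-/- replicate 1, and *Frmd8* was at 0.0144 with library size only and 0.0142 and 0.0136 in the FPKM fits. The median over all genes went from 0.01 to 0.07 with upper quartile factors, 0.16 with library size only, and 0.15 and 0.11 with FPKM. Relative to it *Frmd8* was at -0.14 to -0.10 and *Adam17* at -0.33 to -0.29. Since scaling moves all genes by nearly the same amount, such near equality is built in and is no test of the calls. The share of all calls that were higher went from 46.9% (1869 higher, 2114 lower) to 57.9% with upper quartile factors, 73.7% with library size only (3019 and 1077), and 74.2% and 73.9% with FPKM (2927 and 1016, 2867 and 1011).

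Of the 10 genes, 2 were higher and 5 lower, and 3 were lower in the FPKM fits and with library size only. The genes of the lists, 5 higher and 10 lower, became 8 higher and 8 lower with upper quartile factors, 13 and 7 with library size only, and 11 higher and 6 lower or 9 and 6 with FPKM. With a log2 fold change limit of 1, 422 genes were higher and 109 lower, with 1 and 1 of the 10 and 3 and 2 of the lists. At an adjusted p of 0.01 the counts were 815 and 1027, 1 and 3, and 3 and 5. With 1 library left out, 1089 to 2460 genes were higher and 926 to 2940 lower, 1 to 2 and 3 to 6 of the 10, and 3 to 8 and 5 to 14 of the lists. Transcript usage called 0 of the 4 to 6 of the 10 genes that each of its alternatives could test, and none of the 3196 genes under the replicate block.

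The replicate numbers occur in both groups, and the deviations of libraries with the same number correlated at -0.12 and -0.05 over 12576 genes. The 2 WT libraries deviate equally and oppositely from their mean, so these values cannot show whether equal numbers mean paired libraries. With the replicate block, 1216 genes were higher and 1126 lower, and of the 10 genes 1 was higher and 4 lower, with the calls of *Adam17* (adjusted p = 0.115) and *Timp3* (0.0575) lost. Among the named genes of the lists, the block ended the calls of *Timp2* (0.0723), *Tspan14* (0.0522), *Tspan10* (0.118), *Notch2* (0.317), and *Cd44* (0.191) and added those of *Adam11* (0.0255), *Adam33* (0.0391), and *Csf1* (0.0213). Depth limits *Rhbdf1*, *Timp3*, *Tspan10*, and the EGFR ligands, which had at most 125 counts per library. The causes of these changes were not tested.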
